A study of Mus musculus with 8 samples.

Results

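Transcripts of 10 core circadian clock and clock output genes were examined in RNA sequencing of mouse kidney cortex, among 21705 gene names in the deposited table. The genes were taken by name: Arntl and Clock, which encode the activators, Per1, Per2, Per3, Cry1 and Cry2, which encode the repressors, and Dbp, Tef and Hlf, which encode the PAR bZIP output factors. All 10 were found in the table. Kidney cortex came from mice of genotype Sav1-/- that had received tamoxifen (Sav1-null, 4 libraries) and from mice of genotype Sav1+/+ that had received vehicle (wild-type, 4 libraries), all of mixed background strain. Genotype and treatment changed together, so the 2 cannot be told apart. Library names in the deposited table end in the same set of sample numbers in both groups. Whether the groups were prepared or sequenced apart cannot be told from these names. The sources used here do not give the driver of the deletion, the age and sex of the mice, the time of day of tissue collection or whether each library came from its own mouse.

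The circadian clock is a feedback loop of transcription that runs in nearly every cell. ARNTL (also called BMAL1) and CLOCK bind E-boxes together and activate the Per and Cry genes, whose proteins return to the nucleus and repress them, while the nuclear receptors REV-ERB and ROR act on Arntl through ROR elements. The PAR bZIP factors DBP, TEF and HLF are driven by this loop and bind D-boxes in genes of metabolism and detoxification. In kidney the clock is known for daily rhythms of filtration, of sodium handling and of blood pressure. In mouse tissues Arntl and Npas2 transcripts peak at roughly the opposite time of day to Dbp and Per transcripts.

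Promoter windows are shown for the 4 genes that passed the test of the group difference (Per1, Cry1, Tef and Hlf) and for Per3 and Arntl, in which a D-box and a ROR element were found. Each runs from 250 bases before to 50 bases after an annotated gene start in RefSeq, build GRCm38.p6, and is written 5′ to 3′ on the strand of the gene. RefSeq windows were matched by symbol for 9 of the 10 genes, with 14 windows in all, and Per2 had none. Capitals mark exact matches, on either strand, to an E-box (CACGTG), an E-prime box (CACGTT), a D-box (TTATGTAA or TTACGTAA), a ROR element (ANNTN followed by GGTCA) or a cyclic AMP response element (TGACGTCA).
Per1, chr11:69098699-69098998, plus strand: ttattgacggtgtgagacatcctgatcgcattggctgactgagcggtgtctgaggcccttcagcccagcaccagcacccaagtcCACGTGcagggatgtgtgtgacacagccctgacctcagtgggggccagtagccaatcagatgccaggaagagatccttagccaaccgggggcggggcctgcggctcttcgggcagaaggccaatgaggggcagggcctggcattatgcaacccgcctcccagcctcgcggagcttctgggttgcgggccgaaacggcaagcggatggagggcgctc
Cry1, chr10:85185005-85185304, minus strand: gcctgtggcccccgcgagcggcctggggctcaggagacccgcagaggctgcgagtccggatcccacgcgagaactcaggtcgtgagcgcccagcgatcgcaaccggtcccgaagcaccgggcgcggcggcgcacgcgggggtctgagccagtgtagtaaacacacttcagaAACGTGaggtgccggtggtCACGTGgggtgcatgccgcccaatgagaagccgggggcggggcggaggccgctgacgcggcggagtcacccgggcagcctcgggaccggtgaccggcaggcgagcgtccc
Tef, chr15:81802423-81802722, plus strand: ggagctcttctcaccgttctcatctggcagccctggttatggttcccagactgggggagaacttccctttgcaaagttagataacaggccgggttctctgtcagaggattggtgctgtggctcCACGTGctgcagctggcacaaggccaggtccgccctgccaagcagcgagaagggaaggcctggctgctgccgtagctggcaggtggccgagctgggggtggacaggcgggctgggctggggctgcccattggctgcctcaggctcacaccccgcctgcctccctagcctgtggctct
Hlf, chr11:90390868-90391167, minus strand: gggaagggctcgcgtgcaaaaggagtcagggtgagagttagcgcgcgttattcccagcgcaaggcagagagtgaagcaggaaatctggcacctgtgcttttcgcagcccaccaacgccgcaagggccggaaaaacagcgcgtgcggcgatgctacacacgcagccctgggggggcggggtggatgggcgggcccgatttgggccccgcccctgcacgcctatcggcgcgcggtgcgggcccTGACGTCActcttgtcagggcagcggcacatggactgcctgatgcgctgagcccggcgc
Per3, chr4:151044616-151044915, minus strand: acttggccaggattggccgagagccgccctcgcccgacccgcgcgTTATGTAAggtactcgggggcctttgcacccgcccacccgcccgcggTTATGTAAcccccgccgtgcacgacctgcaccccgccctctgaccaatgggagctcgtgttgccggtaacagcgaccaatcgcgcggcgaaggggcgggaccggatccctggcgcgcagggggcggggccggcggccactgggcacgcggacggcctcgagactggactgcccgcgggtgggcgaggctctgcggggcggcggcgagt
Arntl, chr7:113207261-113207560, plus strand: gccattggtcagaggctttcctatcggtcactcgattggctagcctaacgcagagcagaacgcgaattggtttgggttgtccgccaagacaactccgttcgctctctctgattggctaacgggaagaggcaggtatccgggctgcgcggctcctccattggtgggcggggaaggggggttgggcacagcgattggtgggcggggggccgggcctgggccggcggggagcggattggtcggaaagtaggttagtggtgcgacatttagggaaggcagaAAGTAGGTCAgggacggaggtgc

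No marked motif overlapped another. The E-box in the Per1 window began 166 bases before the start, that of Cry1 60 bases before it and that of Tef 127 bases before it. The Per1 window is that of the first of 2 annotated starts, the Tef window likewise, and that of Arntl belongs to the second of 2; the other Tef window also held an E-box. Both D-boxes were in the Per3 window, beginning 205 and 158 bases before the start, and the cyclic AMP response element of Hlf began 9 bases before it. The ROR element of Arntl lay after the start. An E-box was found in any window of 3 of the 9 genes, which had 14 windows in all. Counted by single window, it was in 7.15% of all 32851 RefSeq windows, so these shares are of unlike units. The D-box TTATGTAA was in 0.938% of all windows, TTACGTAA, which no window of these genes held, in 0.119%, the ROR element in 2.46% and the cyclic AMP response element in 1.79%. Cry1 and Cry2 also held an E-prime box, present in 4.68% of windows, and the windows of Clock and Dbp held none of these letters. A match is a description of the letters and not a bound site.

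The deposited values are gene levels that the authors scaled library by library, with the upper quartile of the nonzero values set to 1000 (999 in wild-type replicate 2). About 15700000 to 20900000 reads lay behind each Sav1-null library and about 20500000 to 25000000 behind each wild-type library. Sav1, the gene targeted, was at 983, 914, 982 and 714 in Sav1-null replicates 1 to 4, against 1504, 1743, 959 and 1193 in wild-type replicates 1 to 4, so 1 wild-type library lay within the Sav1-null range. Its log2 fold change of -0.56 ± 0.19 (SE, limma adjusted p = 0.0220) was not called without wild-type replicate 1 or 2 (limma adjusted p = 0.0611 and 0.0570) or when library totals were set equal (log2 fold change -0.18, limma adjusted p = 0.375), and the part of Sav1 that was deleted is not known here. Sex-chromosome transcripts separated the same libraries: the Y-linked Ddx3y was at 0 in every Sav1-null library and averaged 784 ± 58.1 in wild-type libraries (SD, n = 4), while Xist, expressed from an inactive X chromosome, was at 9280 to 16095 in Sav1-null libraries and below 1 in wild-type libraries. A difference of sex therefore cannot be told apart from that of genotype and treatment. Of 13677 genes tested with limma, 6002 were higher and 3452 lower in Sav1-null cortex at a Benjamini-Hochberg adjusted p under 0.05. Scaling moved this split: 63.5% of calls were higher as deposited, but 49.7% when libraries were rescaled by the median of ratios, 48.2% when they were quantile normalized and 81.8% when their totals were set equal. Over all 13677 genes the median log2 fold change was 0.23 as deposited, and 0.00, -0.03 and 0.62 under these 3 scalings. Markers of cortex were present in every library, with the proximal tubule phosphate transporter gene Slc34a1 at 10492 or more, while 4 of 5 adrenal markers and all 5 adipocyte markers were below the test's filter.

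Of the 10 clock genes, 2 were higher in Sav1-null cortex (Per1 and Cry1), 2 were lower (Tef and Hlf), and 6 did not pass the test. Over all tested genes 43.9% were called higher, 25.2% lower and 69.1% in either direction. The median log2 fold change of the 10 was -0.10, beside 0.23 for all tested genes. The 4 called genes were also the 4 whose groups did not overlap in any library. Over all tested genes 41.0% lay wholly higher, 24.1% wholly lower and 65.2% in either direction. Of the repressor genes 2 of 5 were higher, of the output genes 2 of 3 were lower, and neither activator gene passed. These counts are too small to describe an arm of the loop. The 40% of clock genes called in either direction lay below the 69.1% of all tested genes. With each library left out in turn, 2 or 3 of the 10 were called higher and 2 or 3 lower.

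**Figure D1:**
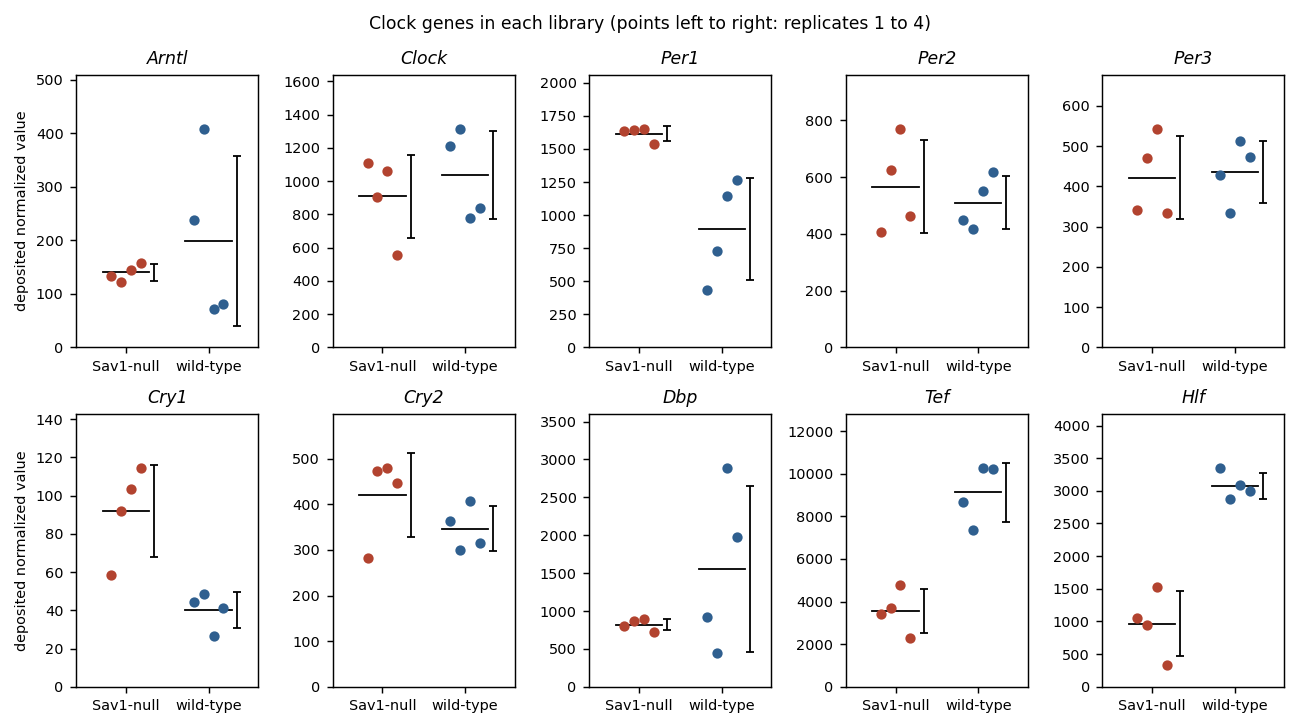
Deposited normalized value (vertical axes, from 0) of each clock gene in the 4 Sav1-null and the 4 wild-type libraries; points are libraries, horizontal lines are group means and bars are ± SD. Per1 and Cry1 lay higher and Tef and Hlf lower in all Sav1-null libraries, while Arntl and Dbp were spread widely among the wild-type libraries.

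The PAR bZIP factors Tef and Hlf were lower in Sav1-null cortex. Tef, the thyrotroph embryonic factor gene, had deposited values of 3440, 3693, 4778 and 2274 in Sav1-null replicates 1 to 4, against 8695, 7367, 10253 and 10203 in wild-type replicates 1 to 4. The groups did not overlap, and the highest Sav1-null library was replicate 3 and the lowest replicate 4. Tef fell 2.64-fold, a log2 fold change of -1.40 ± 0.21 (SE, limma adjusted p = 0.000273). Hlf, the hepatic leukemia factor gene, was at 1055, 950.1, 1531 and 328.7 in Sav1-null replicates 1 to 4, against 3343, 2879, 3089 and 2993 in wild-type replicates 1 to 4. Its wild-type libraries were close to each other, with a highest value 1.16 times the lowest, whereas in Sav1-null libraries this ratio was 4.66. Hlf fell 3.64-fold (log2 fold change -1.86 ± 0.39, SE, limma adjusted p = 0.00203). Without Sav1-null replicate 4, the lowest library, its log2 fold change was -1.41 and the call remained (limma adjusted p = 2.5e-05). For Tef, Hlf, Per1 and Cry1 alike an exact two-sided permutation test with 70 assignments of the libraries gave p = 0.0286, the smallest p it can give.

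Dbp, the D-site binding protein gene and the most strongly cycling of the PAR bZIP transcripts in many mouse tissues, did not pass the test. Its values were 798.7, 867.9, 890.8 and 727.1 in Sav1-null replicates 1 to 4, against 922.8, 439.7, 2882 and 1976 in wild-type replicates 1 to 4. The Sav1-null libraries were close together and lay inside the wild-type range, of which replicate 2 was below and the other 3 above them. The log2 fold change was -0.59 ± 0.49 (SE, limma adjusted p = 0.307). Without wild-type replicate 2 it was -1.09 and was called lower (limma adjusted p = 0.0188). Dbp has 539 of its 1837 exonic bases in common with Sphk2 on the opposite strand in GENCODE M21, and the sources used here do not say whether counting used strand. Smaller overlaps on the opposite strand were annotated for Tef (193 bases), Cry2 (149 bases) and Arntl (33 bases).

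Markers of the proximal tubule, the main epithelium of the cortex, were lower in the same libraries as Tef and Hlf. Of 10 such markers 9 were called lower and 0 higher (median log2 fold change -2.03), beside 25.2% lower and 43.9% higher of all tested genes. Their summed value ranged from 45938 to 129561 in Sav1-null libraries and from 390860 to 435375 in wild-type libraries. In percent of the wild-type mean, Tef was at 37.7%, 40.5%, 52.3% and 24.9% in Sav1-null replicates 1 to 4. Hlf was at 34.3%, 30.9%, 49.8% and 10.7%, and the summed markers at 25.2%, 20.7%, 30.9% and 11%. All 3 were highest in Sav1-null replicate 3 and lowest in replicate 4. This was not particular to the proximal tubule. Summed thick ascending limb markers (70598, 60733, 79132 and 36312 in Sav1-null replicates 1 to 4) had the same highest and lowest library. So had those of the distal convoluted tubule (31418, 36500, 37647 and 24885). Summed markers of collecting duct principal and intercalated cells were lowest in replicate 1. The part of cell composition in these differences was not tested. In a bulk sample fewer cells of a type and less RNA per cell cannot be told apart.

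**Figure D2:**
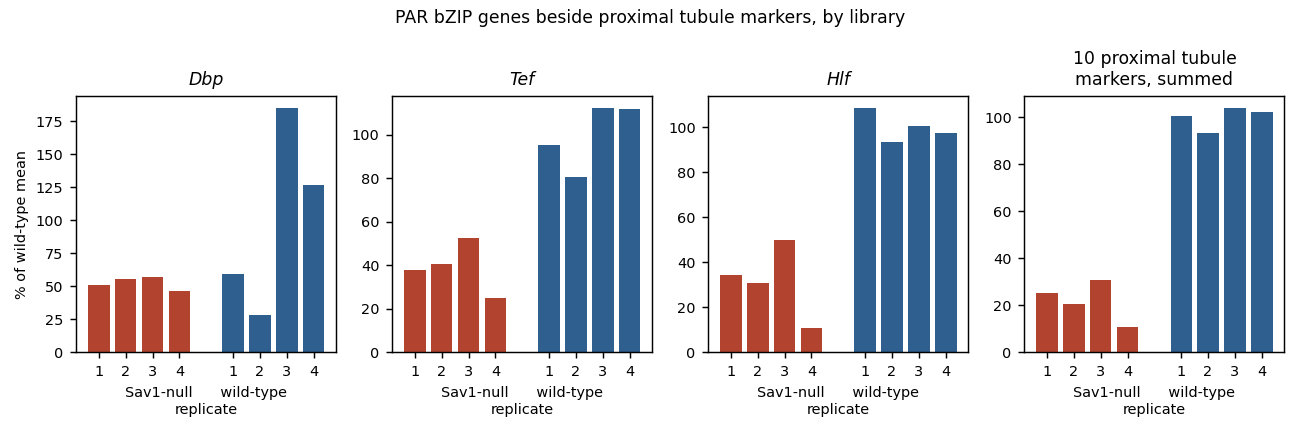
Level in each library as percent of the wild-type mean (vertical axes, from 0) for Dbp, Tef, Hlf and the sum of 10 proximal tubule markers; bars are single libraries, replicates 1 to 4 of each group. Tef, Hlf and the markers were lowest in Sav1-null replicate 4 (24.9%, 10.7% and 11%), while Dbp ranged from 28.3% to 185% within the wild-type group.

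Among the repressor genes, Per1 was higher in Sav1-null cortex. PER1 is the period protein whose gene also answers quickly to cyclic AMP, glucocorticoid and other stimuli. Per1 had values of 1635, 1644, 1650 and 1537 in Sav1-null replicates 1 to 4, against 436.2, 727.1, 1147 and 1269 in wild-type replicates 1 to 4. The Sav1-null libraries differed by a factor of 1.07, the wild-type libraries by 2.91, and the groups did not overlap. Per1 rose 1.96-fold (log2 fold change 0.97 ± 0.29, SE, limma adjusted p = 0.0140), which is 0.74 above the median of all tested genes. Without wild-type replicate 1, the lowest library, the log2 fold change was 0.66 and the call remained (limma adjusted p = 0.0104). After median-of-ratios rescaling the log2 fold change was 0.75 and the call was close to the threshold (limma adjusted p = 0.0491).

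Immediate early genes, a class that many of the same stimuli induce, were higher in the same libraries. Of 9 tested, 7 were called higher and 0 lower, with a median log2 fold change of 2.48. Egr1 rose 11.1-fold, Egr2 12.8-fold, Fos 8.26-fold, Atf3 7.0-fold, Junb 5.58-fold and Ier2 3.76-fold (limma adjusted p between 7.90e-06 and 0.00145). Their summed level was 6680, 6109, 6064 and 9966 in Sav1-null replicates 1 to 4, against 1599, 3248, 4409 and 4556 in wild-type replicates 1 to 4. These sums did not overlap; their largest members in wild-type libraries were Jun and Dusp1, the 2 genes that did not pass the test, named after their values were seen. Of 8 glucocorticoid-induced genes 5 were called higher and 2 lower (median 0.57), beside 43.9% higher and 25.2% lower of all tested genes. Zbtb16 rose 14.7-fold, the metallothionein genes Mt2 and Mt1 rose 5.0-fold and 1.93-fold, Tsc22d3 rose 1.5-fold and Sgk1 1.47-fold, while Errfi1 fell 2.89-fold (limma adjusted p between 5.93e-06 and 0.0159). Markers of injured tubule (5 of 5 called higher, sums from 30488 to 49015 in Sav1-null and from 154.6 to 2485 in wild-type libraries), macrophages (5 of 5, 4225 to 5539 and 923.7 to 1388) and fibroblasts (5 of 5, 1612 to 5203 and 317.5 to 906.4) were also higher. The part of any of these in the differences of Per1 and Cry1 was not tested.

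Cry1, which encodes the stronger of the cryptochrome repressors in mouse, was also higher, from low levels. Its values were 58.56, 91.89, 103.5 and 114.2 in Sav1-null replicates 1 to 4, against 44.43, 48.59, 26.79 and 41.24 in wild-type replicates 1 to 4. Between 28 and 131 reads lay behind these values, the fewest of the 10 genes. Cry1 rose 2.24-fold (log2 fold change 1.16 ± 0.26, SE, limma adjusted p = 0.00323), but after quantile normalization its log2 fold change was 0.20 and it was not called (limma adjusted p = 0.532).

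Cry2, Per2 and Per3 did not pass the test. Cry2, the second cryptochrome gene, was at 283.4, 473.1, 478.8 and 446.9 in Sav1-null replicates 1 to 4, against 364.5, 299.1, 407.7 and 314.4 in wild-type replicates 1 to 4. Sav1-null replicate 1 was below all wild-type libraries and the other 3 above them (log2 fold change 0.26 ± 0.18, SE, limma adjusted p = 0.231). Without that library Cry2 was called higher (log2 fold change 0.44, limma adjusted p = 0.0150). It was also called higher when library totals were set equal (0.64, limma adjusted p = 0.00928). Per2, a period gene that also answers to heat shock factors, was at 407.6, 624.6, 769.5 and 463.6 in Sav1-null libraries and at 449.8, 417.2, 552.2 and 619.6 in wild-type libraries, in the order of the replicates. Its groups overlapped (log2 fold change 0.12 ± 0.21, SE, limma adjusted p = 0.610), and it was called higher when library totals were set equal (0.51, limma adjusted p = 0.0397). Per3, a period gene that mouse clocks can do without, ranged from 332.7 to 542.0 in Sav1-null and from 333.4 to 512.0 in wild-type libraries (log2 fold change -0.06 ± 0.19, SE, limma adjusted p = 0.780).

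Neither activator gene passed the test. Arntl was at 134.3, 122.2, 145.4 and 158.5 in Sav1-null replicates 1 to 4, against 237.6, 408.0, 71.77 and 80.41 in wild-type replicates 1 to 4. All Sav1-null libraries lay inside the wild-type range, with wild-type replicates 1 and 2 above them and 3 and 4 below. The log2 fold change was -0.14 ± 0.50 (SE, limma adjusted p = 0.812). With this spread a log2 difference of the size of that of Per1, 0.97, would lie just within 2 SE of 0 and could be missed. Clock, which encodes the partner of ARNTL, was at 1110, 905.2, 1063 and 557.1 in Sav1-null libraries and at 1212, 1313, 778.0 and 840.2 in wild-type libraries, in the order of the replicates. Its groups overlapped, and Sav1-null replicate 4 was the lowest of the 8 libraries (log2 fold change -0.20 ± 0.24, SE, limma adjusted p = 0.483).

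**Figure D3:**
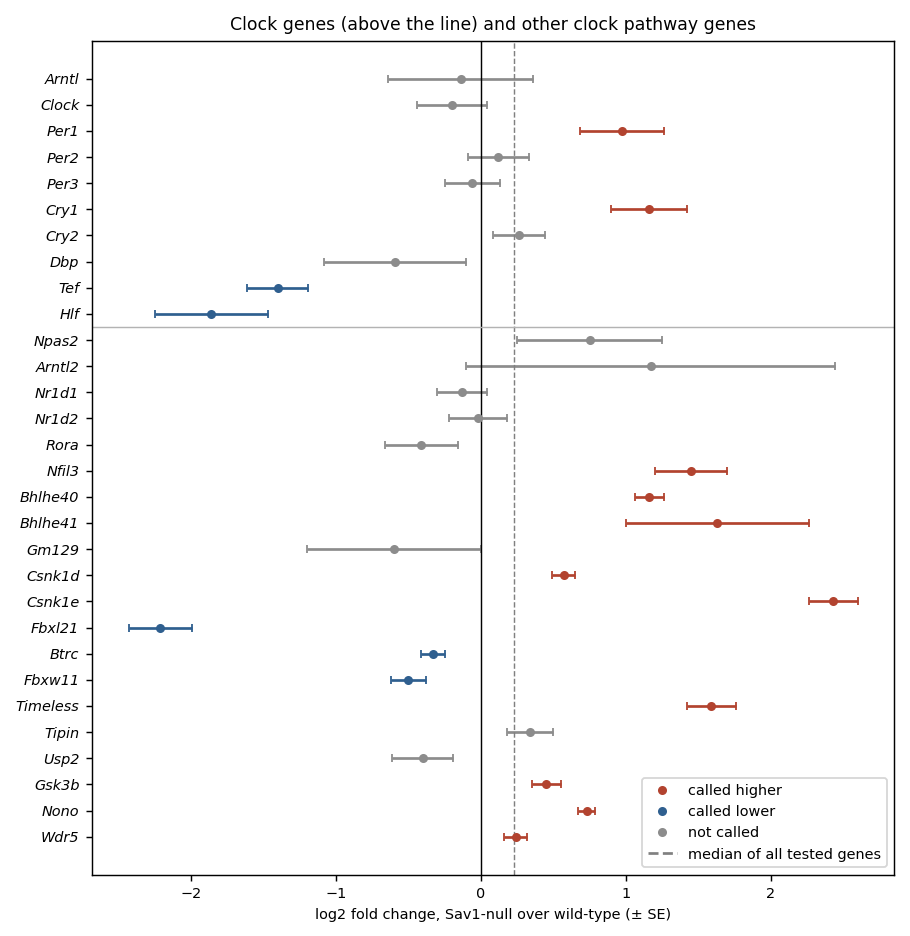
Log2 fold change of Sav1-null over wild-type (horizontal axis, ± SE) for the 10 clock genes and for the 20 tested other genes of the clock pathway; colour shows the limma call and the dashed line the median of all tested genes, 0.23. Tef and Hlf lay at -1.40 and -1.86, Per1 and Cry1 at 0.97 and 1.16, and the widest errors among the clock genes were those of Arntl and Dbp.

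The spread between libraries of one group differed widely among these genes. Within the wild-type group the SD of log2(value + 1) was 1.21 for Arntl and 1.20 for Dbp, larger than for 99.2% and 99.1% of all tested genes, and 0.70 for Per1, larger than for 95.1%. Within the Sav1-null group the SDs of the same genes were 0.16, 0.13 and 0.05, larger than for 34.6%, 26.5% and 3.16% of tested genes. For each of the other clock genes the SD was instead larger in Sav1-null than in wild-type libraries. In that order it was 0.44 and 0.23 for Tef, 0.45 and 0.38 for Clock, and 0.42 and 0.37 for Cry1. It was 0.36 and 0.20 for Cry2, 0.41 and 0.26 for Per2, and 0.35 and 0.27 for Per3. The difference was largest for Hlf, with an SD of 0.95 in Sav1-null and 0.09 in wild-type libraries. Much of that Sav1-null SD came from 1 library, replicate 4, at 328.7 against 950.1 to 1531 in the others. Npas2, a paralog of Clock that can replace it as partner of ARNTL, and Gm129 (Ciart), which encodes the repressor CHRONO, had wild-type SDs of 1.13 and 1.21, larger than for 98.9% and 99.2% of tested genes. Their Sav1-null SDs were 0.42 and 0.82, larger than for 81.5% and 95.9%, so these were not tight in that group. Wild-type SDs were larger still for the low-expressed Arntl2 (2.53, with 1.78 in Sav1-null libraries) and Bhlhe41 (1.26, with 0.71).

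Arntl and Dbp moved in opposite directions among the wild-type libraries. The log2 ratio of Arntl to Dbp within a library, which does not change when a library is multiplied by 1 factor but can change with quantile normalization, was -2.57, -2.83, -2.62 and -2.20 in Sav1-null replicates 1 to 4. In wild-type replicates 1 to 4 it was -1.96, -0.11, -5.33 and -4.62. The wild-type ratios spanned 5.22 on the log2 scale and the Sav1-null ratios 0.63, and all Sav1-null ratios fell within the wild-type span. The log2 ratio of Arntl to Per2 spanned 0.86 in Sav1-null and 2.91 in wild-type libraries, and that of Cry1 to Dbp 1.10 and 3.57. None of these 3 ratios separated the groups. The ratio of Npas2 to Dbp, which was chosen after its values were seen, spanned 1.33 in Sav1-null and 5.0 in wild-type libraries, with wild-type replicate 2 above, replicates 3 and 4 below and replicate 1 inside the Sav1-null range. Of further ratios chosen in this way, that of Tef to Dbp spanned 0.78 in Sav1-null and 2.24 in wild-type libraries. That of Hlf to Tef was wider in Sav1-null libraries, with a span of 1.15 against 0.41 in wild-type libraries. The Hlf to Tef value was -2.79 in Sav1-null replicate 4 and from -1.96 to -1.64 in the other Sav1-null libraries. Both ratios overlapped between the groups. Ratios of Per1 to Per2 and of Cry1 to Cry2, also chosen after their values were seen, did separate the groups: log2 values ran from 1.10 to 2.0 in Sav1-null and from -0.04 to 1.06 in wild-type libraries for the period pair. For the cryptochrome pair they ran from -2.36 to -1.97 in Sav1-null and from -3.93 to -2.62 in wild-type libraries.

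**Figure D4:**
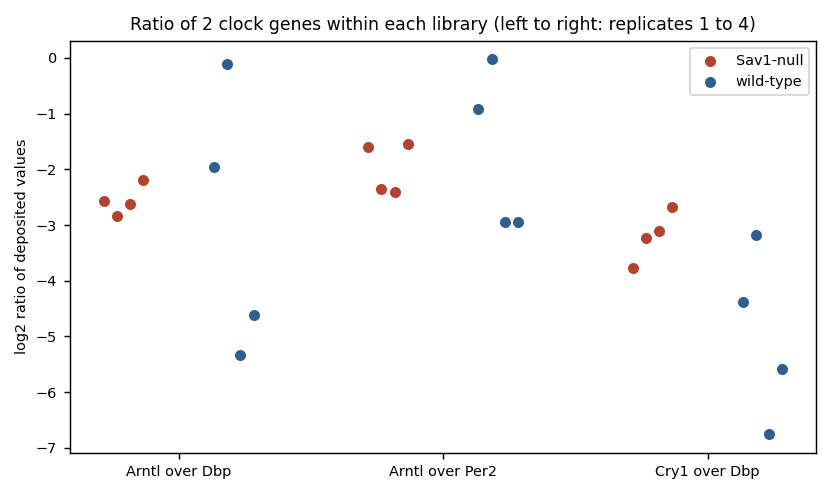
Log2 ratio of the deposited values of 2 clock genes within each library (vertical axis); points are libraries, replicates 1 to 4 from left to right in each group. The Arntl to Dbp ratio spanned 0.63 in the Sav1-null group and 5.22 in the wild-type group, where replicates 1 and 2 lay above and 3 and 4 below all Sav1-null libraries.

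Per kilobase of the longest annotated coding transcript, Tef was the most abundant of the 10 in both groups, at 805 ± 233 in Sav1-null and 2073 ± 313 in wild-type libraries (SD, n = 4 each). Dbp had the next highest mean, at 447 ± 40.2 in Sav1-null and 847 ± 595 in wild-type libraries, where its range (239 to 1570) held that of Hlf (510 to 592), and Cry1 was the least abundant, at 30.4 ± 7.96 and 13.3 ± 3.13 in the same order. In Sav1-null libraries Per1 was at 346 ± 11.4 per kilobase and Hlf at 171 ± 87.6, with ranges that did not overlap. In wild-type libraries Hlf was at 545 ± 35.0 and Per1 at 192 ± 82.2, again without overlap, so the order of these 2 genes was reversed between the groups. Clock, Per2, Per3 and Cry2 lay between 70.3 and 106 per kilobase in Sav1-null and between 72.7 and 106 in wild-type libraries, with overlapping ranges throughout.

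Other genes of the clock pathway were counted from a list of 21. Of the 20 tested, 9 were higher in Sav1-null cortex, 3 were lower and 8 did not pass the test, with a median log2 fold change of 0.40; Rorb was below the filter. Over all tested genes 43.9% were higher, 25.2% lower and 69.1% called in either direction, so these shares were near or below the background. The groups did not overlap for 11 of the 20 tested genes, all of them called, beside 65.2% of all tested genes. Bhlhe41 was the called gene whose groups overlapped. Among repressors of the loop, Nfil3, which encodes the factor that competes with the PAR bZIP proteins at D-boxes, was at 384.9, 343.1, 325.5 and 329.7 in Sav1-null replicates 1 to 4, against 110.6, 222.8, 88.04 and 113.4 in wild-type replicates 1 to 4. Nfil3 was higher in every Sav1-null library and rose 2.74-fold (log2 fold change 1.45 ± 0.25, SE, limma adjusted p = 0.000663). Bhlhe40, which encodes the E-box repressor DEC1, was at 3622, 3375, 4268 and 4266 in Sav1-null libraries and at 1845, 1727, 1791 and 1561 in wild-type libraries, a 2.23-fold rise (limma adjusted p = 9.14e-06). Bhlhe41, its low-expressed paralog, was 3.10-fold higher with a limma adjusted p of 0.0409. That call was lost without Sav1-null replicate 1, 2 or 4 or wild-type replicate 1 or 2 (limma adjusted p from 0.0645 to 0.107) and under both median-of-ratios and quantile scaling (0.0723 and 0.449).

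The nuclear receptor genes Nr1d1, Nr1d2 and Rora of the second loop did not pass the test. Nr1d1, which encodes REV-ERB alpha, averaged 1274 ± 109 in Sav1-null and 1420 ± 372 in wild-type libraries (SD, n = 4 each, limma adjusted p = 0.521), and its exons share 263 bases with Thra on the opposite strand. Nr1d2 averaged 2111 ± 540 and 2097 ± 295 in the same order (limma adjusted p = 0.933). Rora had a log2 fold change of -0.41 as deposited (limma adjusted p = 0.169) and was called lower after median-of-ratios rescaling (-0.63, limma adjusted p = 0.0435) and quantile normalization (-1.09, limma adjusted p = 0.00424). Npas2 had a log2 fold change of 0.75 ± 0.50 (limma adjusted p = 0.207), and was called higher without wild-type replicate 2 (1.17, limma adjusted p = 0.0355). Arntl2 and Gm129 were uneven within both groups and did not pass (limma adjusted p = 0.431 and 0.394).

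Genes that act on the stability of PER and CRY proteins went both ways. Csnk1e, the casein kinase 1 epsilon gene, was at 739.4, 840.7, 778.2 and 1269 in Sav1-null replicates 1 to 4, against 145.1, 156.6, 183.7 and 171.1 in wild-type replicates 1 to 4. It rose 5.39-fold, with no overlap (limma adjusted p = 3.57e-06), and Csnk1d, the delta kinase gene, rose 1.48-fold (limma adjusted p = 0.000129). The F-box gene Fbxl21, whose protein acts on cryptochromes, was at 34.35, 20.53, 25.28 and 17.72 in Sav1-null libraries and at 124.2, 116.4, 103.3 and 109.3 in wild-type libraries, a 4.61-fold fall (limma adjusted p = 2.21e-05). Btrc and Fbxw11, which encode the F-box proteins that mark PER for destruction, fell 1.26-fold and 1.42-fold (limma adjusted p = 0.00494 and 0.00410). When library totals were set equal neither was called, and the log2 fold change of Btrc turned to 0.05. Timeless, known in mammals mainly for DNA replication, rose 3.01-fold, and the PER-associated RNA-binding protein gene Nono rose 1.66-fold (limma adjusted p = 3.02e-05 and 7.98e-06). Gsk3b rose 1.36-fold and Wdr5 1.18-fold (limma adjusted p = 0.00318 and 0.0240). Both calls were lost after median-of-ratios rescaling, and that of Wdr5 also without wild-type replicate 1 or 4 (limma adjusted p = 0.0724 and 0.0564). Tipin and Usp2 did not pass (limma adjusted p = 0.0896 and 0.116), and Usp2 was called lower without Sav1-null replicate 3 (log2 fold change -0.54, limma adjusted p = 0.0438) and under median-of-ratios scaling (-0.63, limma adjusted p = 0.0265). Tipin was called higher when library totals were set equal (log2 fold change 0.72, limma adjusted p = 0.00241).

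Of 15 textbook clock output genes of liver and kidney, all tested, 7 were higher, 6 lower and 2 not called, with a median log2 fold change of 0.56. Over all tested genes 43.9% were higher and 25.2% lower. Por, the P450 reductase gene, was at 3792, 3436, 3927 and 2916 in Sav1-null replicates 1 to 4, against 8673, 8094, 11308 and 11613 in wild-type replicates 1 to 4. It fell 2.80-fold with no overlap (limma adjusted p = 2.05e-05). Alas1, Abcb1a and Nr1i3 are named after their values were seen. Alas1, the heme synthesis enzyme gene, fell 1.55-fold with overlapping groups (limma adjusted p = 0.0438). Abcb1a went the other way and rose 3.15-fold, also with overlapping groups (limma adjusted p = 0.0123). Nr1i3 had a log2 fold change of 1.44 and did not pass (limma adjusted p = 0.0851). The sodium-proton exchanger gene Slc9a3 fell 2.88-fold (limma adjusted p = 0.00175). Por, Alas1 and Slc9a3 were lowest in Sav1-null replicate 4, like the summed proximal tubule markers (9 of 10 called lower). Summed markers of the thick ascending limb and of the distal convoluted tubule were also lowest there. The part of any of these markers in the falls was not tested. Wee1, the cell cycle kinase gene driven by E-boxes in mouse liver, rose 2.31-fold, Klf10 5.06-fold and Pdk4, a pyruvate dehydrogenase kinase gene, 4.97-fold (limma adjusted p between 3.36e-05 and 0.000500). Scnn1a, the alpha subunit gene of the epithelial sodium channel, which PER1 is known to activate in collecting duct cells, rose 1.91-fold (limma adjusted p = 0.00161). Markers of collecting duct principal cells were higher in the same libraries, 4 of 5 called higher and 0 lower, with sums from 14717 to 24246 in Sav1-null and from 6088 to 8505 in wild-type libraries, and their part in the Scnn1a difference was not tested.

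**Figure D5:**
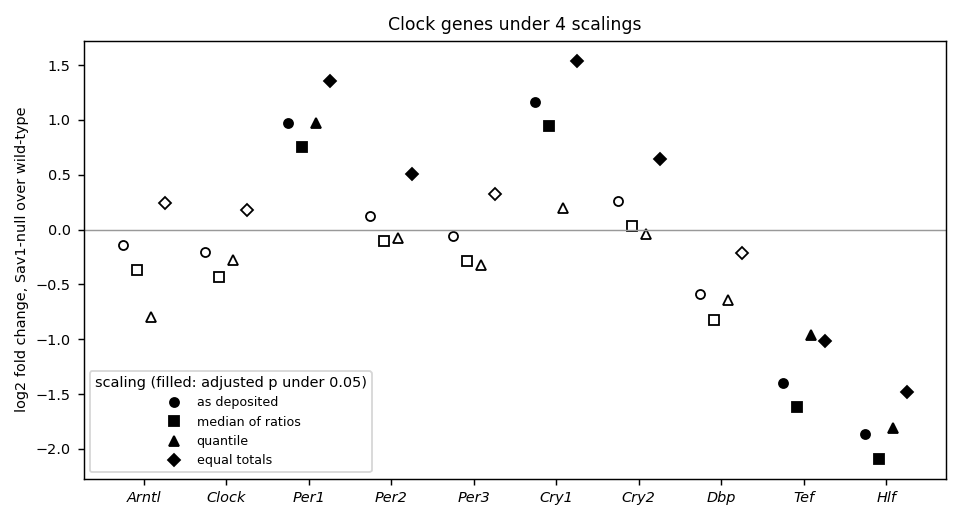
Log2 fold change of Sav1-null over wild-type (vertical axis) for each clock gene with the deposited scaling and with 3 other scalings of the libraries; filled symbols have a limma adjusted p under 0.05. Tef, Hlf and Per1 were called under all 4, Cry1 under all but quantile normalization, and Per2 and Cry2 with equal totals only. Per1 was close to the threshold after median-of-ratios rescaling (limma adjusted p = 0.0491).

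Profiles most like those of Dbp and Arntl were sought among the tested genes with a mean of at least 100. Likeness was the root mean square difference between log2(value + 1) profiles, each centred on its own mean over the 8 libraries. Nearest to Dbp were Reep6, Metrn and Gm129, with differences of 0.38, 0.43 and 0.48. Reep6, an endoplasmic reticulum protein gene, was at 790.9, 666.7, 674.7 and 513.8 in Sav1-null replicates 1 to 4, against 752.7, 693.6, 2195 and 1294 in wild-type replicates 1 to 4, high like Dbp in wild-type replicates 3 and 4. Nearest to Arntl were Nt5e, the ecto-5′-nucleotidase gene, Glcci1 and Gm13251, with differences of 0.45, 0.45 and 0.47, and Clock ranked 61 of 10914 genes. Dbp ranked 10220 of 10914 from Arntl, with a difference of 1.5. The measure was applied to Per1, Cry1, Tef and Hlf after their values were seen. For Cry1 the nearest were Pfkp (0.2), Setbp1 (0.21) and Myo5c (0.22). Nearest to Per1 were Nfkbia (0.14), Csrnp1 (0.21) and the AP-1 gene Jun (0.27). Nearest to Tef were Klhl3 (0.09), Tstd1 (0.11) and Gpx3 (0.12). Nearest to Hlf were Kmo (0.07), the kynurenine monooxygenase gene, Gyk (0.11) and Slc16a9 (0.14), while Tef ranked 244 of 10914 from Hlf.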

How the data were processed

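RNA was isolated from kidney cortex with a column kit and stranded mRNA libraries were made, per the labels' protocols. The deposited table holds 1 normalized signal value per gene and library, made by the authors. Per the submitters' processing notes, RSEM, SAMtools and Picard 1.64 were used with build mm9; the sources used here give no aligner, annotation or strand setting. Low values fell on steps taken as 1 read, but 92.7% to 93.3% lay on whole steps (within 0.02 read), so no count model was used.

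Genes with a mean of at least 10 were tested (13677; 8028 were below) with limma 3.58.1 in R 4.3.3 on log2(value + 1) with an intensity trend and 6 residual degrees of freedom, with Benjamini-Hochberg adjustment over all tested genes. Fold changes are antilogs on that scale, which understates changes of low genes. The fit was tested on simulated data. All libraries of a group differed by more than sampling noise (chi-square over degrees of freedom from 12.9 to 114). Pairs that held Sav1-null replicate 4 gave 62.5 to 114, and the other Sav1-null pairs 14.0 to 28.1. P-values reflect only the spread between samples, which may be technical. The clock genes, gene lists and named genes (all clock genes and clock pathway genes, and, of the other lists, up to 6 called genes with the smallest p, apart from those said to be named after their values were seen) were chosen with earlier results of these data known; some pathway genes are not reported here and stand in no list count. Alternatives were 2 pseudocounts, 2 filters, 3 scalings, no trend, a replicate block and leaving out each library. RefSeq windows and GENCODE lengths are of build GRCm38, not mm9, and served for sequence, length and exon overlap.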

Additional observations from a re-analysis of the deposited data

Results flagged for a closer look

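In 140 groups of 4 libraries, 1 library stood apart from the other 3 in 11 (gap to the nearest other library over the range of the group, above Dixon's critical value), where chance gives about 7.0. Among the clock genes these were Per1 in Sav1-null replicate 4 (0.873), which at 1537 was still above all wild-type libraries, and Cry2 in Sav1-null replicate 1 (0.868). Among other clock pathway genes they were Arntl2 in Sav1-null replicate 1 (0.878), Nono in Sav1-null replicate 4 (0.881) and in wild-type replicate 4 (0.914), and Timeless in wild-type replicate 2 (0.835). Among output, immediate early and temperature genes they were Fos (0.870) and Egr1 (0.934) in Sav1-null replicate 4, Abcb1a in wild-type replicate 3 (0.842), Dusp1 in wild-type replicate 1 (0.990) and Dnajb1 in wild-type replicate 2 (0.943).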

How the results depend on the processing

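Over 169 values of the 10 clock genes under 17 alternatives, 164 kept their side of the threshold, 4 became called (Cry2 under 2 settings, Per2 and Dbp under 1 each), 1 lost its call (Cry1 after quantile normalization) and 0 called values changed sign. Tef (log2 fold change -1.62 to -0.96), Hlf (-2.15 to -1.41) and Per1 (0.66 to 1.35) were called under all 17. Their largest limma adjusted p was 0.00398 for Tef, 0.00697 for Hlf and 0.0491 for Per1, the last close to the threshold. The number of clock genes called higher was 1 with a mean of at least 100, which leaves Cry1 untested, 1 after quantile normalization and 4 when totals were set equal; the cause of the last 2 was not tested. The number of clock pathway genes called lower was 5 under median-of-ratios scaling and 1 when totals were set equal, where Btrc turned to 0.05, uncalled. Same-numbered libraries of the groups did not deviate together (r = 0.144, 0.0762, -0.169 and 0.135 for numbers 1 to 4), so the numbers are not taken to pair them; a fit with the replicate block called 9318 genes in place of 9454, the same 2 clock genes higher and 2 lower, and 9 and 3 pathway genes. At the depth of these libraries Cry1 rested on 28 to 131 reads.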

Other observations

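Genes that follow body temperature were also examined, since the cold-induced RNA-binding protein CIRBP is known to act on clock transcripts in mouse cells. Of 7 tested, 4 were higher and 1 lower in Sav1-null cortex (median log2 fold change 0.46, beside 0.23 for all tested genes), and 69.1% of all tested genes were called. The cold-induced gene Rbm3 was at 329.5, 448.7, 402.9 and 465.6 in Sav1-null replicates 1 to 4, against 191.3, 179.3, 149.2 and 128.7 in wild-type replicates 1 to 4, and rose 2.54-fold (limma adjusted p = 6.60e-05). Cirbp rose 1.38-fold (limma adjusted p = 0.0314). Of the heat-induced genes, Hspa1b rose 4.75-fold and Hspa1a 2.72-fold, whereas Hsph1 fell 1.56-fold (limma adjusted p = 0.000434, 0.000798 and 0.00104).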
